A study of Mus musculus with 10 samples.

Results

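CD4+CD25- T cells in which the TGF-beta receptor gene Tgfbr2 had been deleted (KO) were compared with Tgfbr2-sufficient cells (WT), both with Il4 intact, across all named genes. The libraries were chosen by their genotype label: 2 WT and 4 KO libraries, which are 6 of the 10 libraries of the series. The cells were sorted from breast tumours of 23-week-old C57BL/6 mice carrying PyMT, a viral oncogene that drives mammary tumours. WT mice (Tgfbr2fl/flPyMT) carried floxed Tgfbr2 and no Cre. KO mice (ThPOKCreTgfbr2fl/flPyMT) carried the same floxed alleles and a Cre driven by ThPOK, a gene that CD4-lineage T cells express. No group compared here had this Cre with unfloxed Tgfbr2. In KO against WT, the Cre and the deletion therefore cannot be told apart. Each KO replicate had a first and a repeat library prepared from one RNA extraction. These were averaged, so that n = 2 replicates per genotype. WT had no repeat libraries, so a difference between first and repeat libraries enters the KO mean only. Values from each set are therefore given for many genes. Nothing in the labels states that replicates are separate animals, so p-values describe only how far these samples spread, and that spread may be technical. The other 4 libraries, from Il4-/- mice with and without the deletion, entered the estimate of that spread and a test of whether the difference depended on Il4.

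TGF-beta is a cytokine that restrains T cell activation. It binds a receptor made of the TGFBR1 and TGFBR2 chains, which phosphorylate SMAD2 and SMAD3, and these enter the nucleus with SMAD4. Among the direct targets of the SMADs are inhibitors of the same pathway, such as Smad7, Skil and Pmepa1, and Itgae, which encodes the integrin CD103 of tissue-resident T cells. In CD4 T cells, TGF-beta is also known to oppose type 1 and type 2 helper programmes and to promote regulatory and type 17 helper programmes.

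The WT and first KO libraries held 17121030 to 18479090 reads and the KO repeats 28003231 and 29715400. In these 6 libraries a gene listed at 0 could have had up to 3 reads, which is worth 2.55 to 4.41 normalized counts and covers counting error only. Core T cell genes such as Cd3e, Cd4 and Lck were abundant in all 6 libraries, with a summed level over 16 genes of 164207 and 309834 normalized counts in WT, against 278950 to 336544 in KO. Genes of other cells were present as well. The summed level of 16 mammary and tumour epithelium markers was 188761 in WT replicate 1 and 27657 in WT replicate 2, and 70468 to 135670 in KO, between the WT values. The neutrophil list had 66227 and 2630 in WT and 25853 to 33682 in KO, mostly from Lcn2 and Ltf. The summed level of the cytosolic ribosomal protein genes was 423200 in WT replicate 1, 145354 in WT replicate 2 and 419868 to 569375 in KO. On the first principal component the repeat library of KO replicate 2 was far from the others, at 227 against -106 to 80.7, and it had the fewest genes detected of the 6, with 12459 against 12891 to 14893. Results without 1 replicate or without this library are therefore given where they differ.

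**Figure D1:**
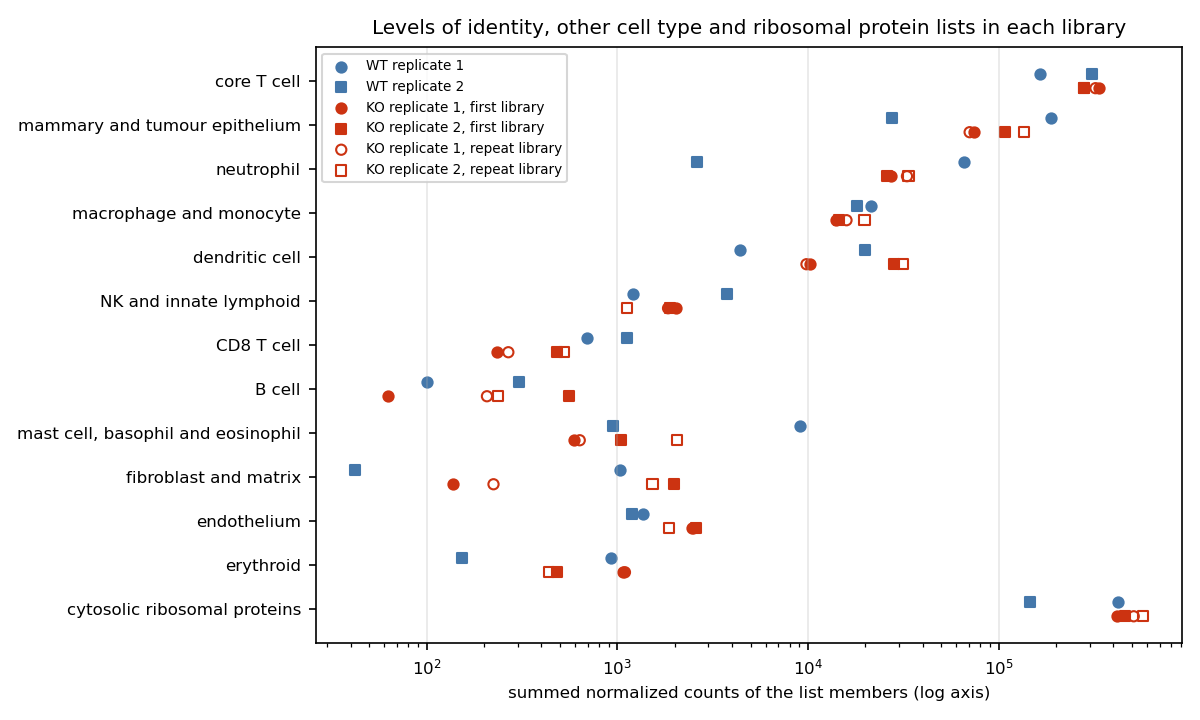
Summed normalized counts of gene lists for T cell identity, other cell types and ribosomal proteins in each WT and KO library, on a log axis. WT replicate 1 has 188761 for epithelium against 27657 in WT replicate 2, and the KO libraries lie between them at 70468 to 135670.

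Of 14473 genes tested with limma, 1 gene, Mmp9, passed an adjusted p of 0.05, a share of 0.00691%. At an unadjusted p under 0.05, 751 genes were higher in KO (5.19%) and 998 were lower (6.90%). Without the repeat library of KO replicate 2 these counts were 578 and 939. edgeR called 0 genes after adjustment and 1719 at an unadjusted p under 0.05 (11.9%). DESeq2 called 527 of the 13070 genes to which it gave an adjusted p (4.03%), of which 243 were higher (1.86%) and 284 lower (2.17%). With the first KO libraries alone, limma found 515 higher (3.56%) and 907 lower (6.27%), and with the repeats alone 830 higher (5.73%) and 1564 lower (10.8%), at an unadjusted p under 0.05. The median log2 fold change over all tested genes was -0.07. In 2 replicates per genotype, the median standard error of a log2 fold change was 0.61. The statements on genes and lists below are thus mostly descriptions of levels, with limma's adjusted p beside them. This holds too where groups are said not to overlap, since the share of all genes without overlap was not counted. Libraries of one RNA are not independent, so separation of all KO libraries is not a test. Since the RNA came from whole sorted populations, fewer cells of a type and less RNA per cell cannot be told apart.

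**Figure D2:**
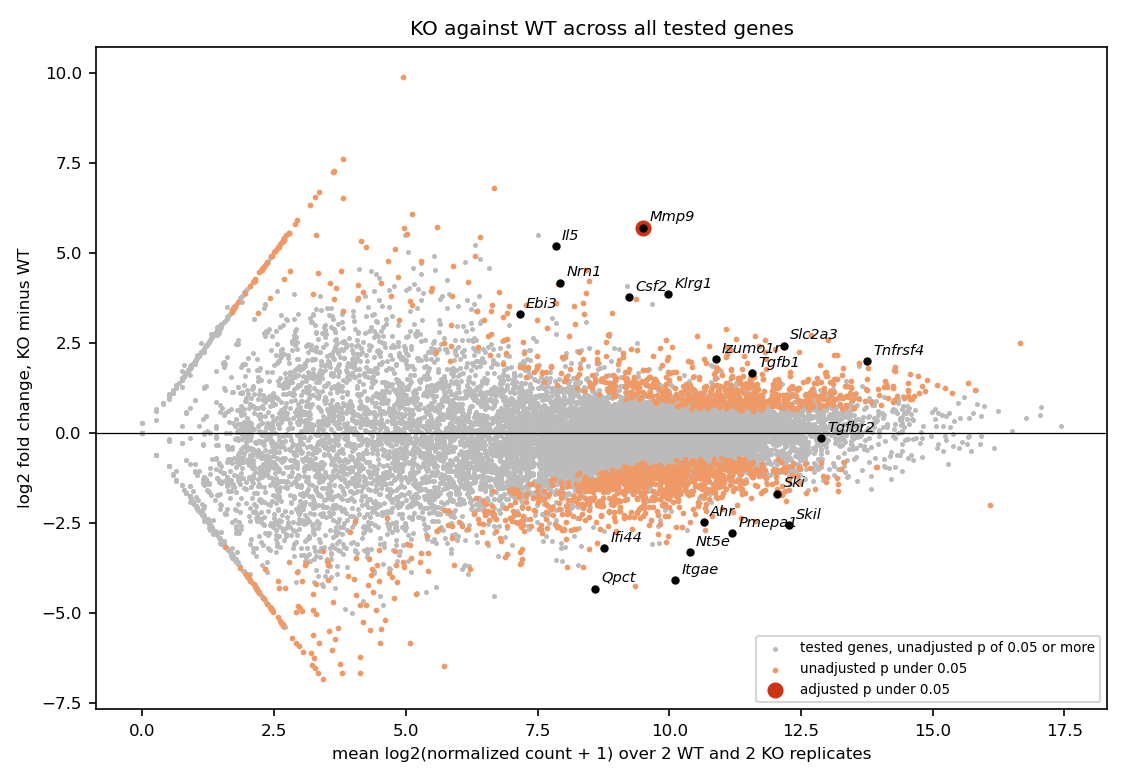
Log2 fold change of KO against WT for each of the 14473 tested genes, plotted against the mean log2 normalized count. Mmp9, at 5.70, is the 1 gene past the adjusted threshold; Pmepa1, Nt5e, Qpct and Itgae lie far below 0 among well-expressed genes and Tgfbr2 lies near it.

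Tgfbr2 (chr9:116084293-116175360, mm10, minus strand), the deleted gene, was read first. It had 7876 and 7894 normalized counts in WT, against 5828 and 5803 in the first KO libraries, with 7632 and 9442 in their repeats. The first libraries lay below WT and 1 repeat lay above it, so the groups overlapped. Its log2 fold change was -0.14 ± 0.27 (SE, limma adjusted p = 0.876), -0.44 with the first libraries alone and 0.11 with the repeats alone. On the Il4-deficient background it was -0.72 ± 0.27, with 13816 and 12544 normalized counts without the deletion and 7762 and 8205 with it. A Cre deletion between loxP sites can leave reads from the rest of a gene, so a count over the whole gene checks the label only weakly.

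Inhibitors and targets of the pathway were read next. Of the 17 tested genes of the TGF-beta feedback and response list, 15 were lower in KO, beside 52.9% of all genes, and 2 were higher, beside 46.7%. Their median log2 fold change was -0.93, and that of all genes -0.07. At an unadjusted p under 0.05, 7 of the 17 were lower, beside 6.90% of all genes, and 0 were higher. DESeq2 called 5 of them lower. The median lay between -1.17 and -0.67 when any 1 replicate was left out.

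Pmepa1 (chr2:173224458-173276533, minus strand) encodes a membrane protein that sequesters SMADs. It had 6580 and 5748 normalized counts in WT, against 960 and 1903 in the first KO libraries, with 297 and 647 in their repeats. The highest KO library was below the lower WT library by a wide margin, and within one RNA the repeat was the lower library. Its log2 fold change was -2.78 ± 0.43 (limma adjusted p = 0.25). Skil encodes SnoN, which represses SMAD-driven transcription, and had 7125 and 20725 in WT, 2036 and 1934 in the first KO libraries, with 2933 and 1417 in their repeats. Here too the groups did not overlap, while the WT replicates were far apart. Ski, its relative, had 6754 and 8607 in WT and 3254 and 4448 in the first KO libraries, but 587 and 1350 in the repeats. The KO libraries were all lower, and those made from one RNA differed more from each other than the WT replicates did. In Il4-deficient cells with intact Tgfbr2, Ski had 1537 and 1232, below the first KO libraries, and 538 and 641 with the deletion. Pmepa1 had 2598 and 1469 there, the lower of which was within the KO range, and 400 and 472 with the deletion. The part of library set or Il4 in the levels of these genes was not tested. Ldlrad4, which also binds SMADs, had 2848 and 4440 in WT against 391 to 1580 in KO, with no overlap (log2 fold change -2.18). Klf10, an early TGF-beta response gene (-0.93), and Smurf2, a ubiquitin ligase for the receptor (-1.65), were lower too.

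Smad7, the best known inhibitor of the receptor, did not separate the groups. It had 2156 and 3318 normalized counts in WT, against 729, 989 and 964 in 3 KO libraries, and 3011 in the repeat of KO replicate 2. Itgae, which encodes CD103, had 1749 and 11950 in WT, 165 and 822 in the first KO libraries, with 127 and 164 in their repeats. All KO libraries were below both WT libraries, although the WT replicates differed several-fold (log2 fold change -4.09 ± 1.07, limma adjusted p = 0.345). Id2, a transcriptional inhibitor that TGF-beta can regulate in either direction (0.95), and Tgfbi, a matrix protein gene (0.99), were the 2 genes with a higher level in KO.

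Among the 15 ligands, receptors and SMADs, 4 were higher and 2 lower at an unadjusted p under 0.05, beside 5.19% and 6.90% of all genes. The list median was -0.55. Without WT replicate 1 that median was -0.14, and 2 were higher and 3 lower. Tgfb1 (chr7:25687002-25705077), the ligand gene, had 1606 and 1851 normalized counts in WT, against 4046 and 3644 in the first KO libraries, with 5153 and 9097 in their repeats. Every KO library had more than either WT library (log2 fold change 1.65 ± 0.28, limma adjusted p = 0.25). Furin, a protease that activates TGF-beta (1.23), Lrrc32, which encodes GARP, the cell surface holder of latent TGF-beta (1.57), and the signal transducer gene Smad3 (1.08) were the other 3 higher genes. Smad3 had 1388 and 1225 in WT and 2119 to 3900 in KO. Tgfbr3, the co-receptor betaglycan, had 1031 and 2431 in WT and 144 to 432 in KO (-2.66 ± 0.67), and Smad4 was lower as well (-0.87). Ligand and receptor genes thus lay on both sides of 0, with Smad3 and Tgfb1 above their WT range and Tgfbr3 below it.

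**Figure D3:**
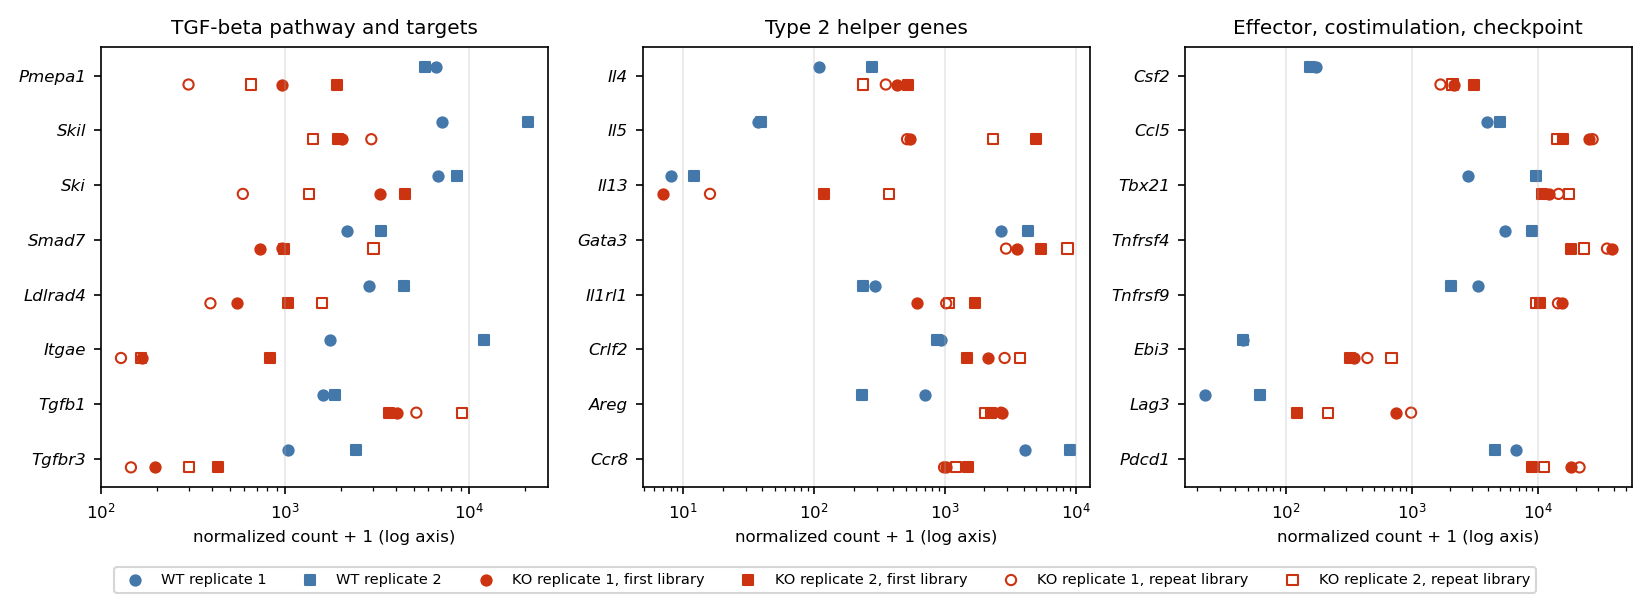
Normalized counts plus 1 of TGF-beta pathway genes, type 2 helper genes and effector, costimulatory and checkpoint genes in each WT and KO library, on log axes. Pmepa1 lies at 297 to 1903 in KO against 5748 and 6580 in WT, while Il13 and Lag3 spread within KO.

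Mmp9 (chr2:164940780-164955850) encodes a secreted gelatinase that cleaves extracellular matrix. It had 92 and 108 normalized counts in WT, against 3205 and 4661 in the first KO libraries, with 3473 and 11747 in their repeats. It rose in every KO library and in both replicates. The log2 fold change was 5.70 ± 0.46 (limma adjusted p = 0.0316), 5.26 with the first KO libraries alone (0.00719) and 5.98 with the repeats alone, where it did not pass (0.0972). Leaving out any of the 8 replicates ended the call, with an adjusted p of 0.0508 to 0.273, and it did not pass by edgeR (0.108) or with the 2 genotypes fitted alone (0.752). Neutrophils also make Mmp9, and genes of the neutrophil list were present in these libraries. The list summed to 66227 and 2630 normalized counts in WT and 25853 to 33682 in KO, mostly from Lcn2 and Ltf. In WT these 2 genes were higher in replicate 1, as were the epithelium markers, with 188761 against 27657. The cell source of the summed level was not tested. Its members differed in their order between the KO replicates. S100a8 had 1844 and 2210 in KO replicate 1 and 318 and 115 in KO replicate 2, with 291 and 21 in WT. Lcn2, the most abundant member in KO, had 19734 and 24555 in KO replicate 1, 21206 and 28516 in KO replicate 2, and 25223 and 1685 in WT. Ltf had 1833 and 2045 in KO replicate 1, 3804 and 4809 in KO replicate 2, and 40465 and 811 in WT. Mmp9 was higher in KO replicate 2, as Lcn2 and Ltf were and S100a8 was not. Of the 12 neutrophil genes, Ly6g, Mpo, Elane and Camp had too few counts to be tested, and 7 of the 8 others were higher in KO. Their median log2 fold change was 3.04 and was 1.48 without KO replicate 1. The part of neutrophil RNA in the Mmp9 values was not tested. Of the 19 tested metalloprotease and inhibitor genes, 2 were higher and 1 lower at an unadjusted p under 0.05. Over all genes these shares were 5.19% and 6.90%. Besides Mmp9, Adam8, a membrane sheddase, was higher (1.32), and Mmp11 was lower (-2.66). The list median was -0.15 (0.42 without WT replicate 1). Mmp3, Mmp7 and Mmp23 had 0 reads in all 6 libraries. The log2 fold changes of the inhibitor genes Timp1, Timp2 and Timp3 were -0.22, -0.15 and -1.91, none past that level.

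Klrg1 (chr6:122270596-122282882, minus strand) encodes an inhibitory receptor of antigen-experienced T and NK cells that binds cadherins. It had 339 and 206 normalized counts in WT, against 2976 and 5493 in the first KO libraries, with 2745 and 4928 in their repeats. The repeats matched the first libraries closely, and no KO library came near the WT range. The log2 fold change was 3.86 ± 0.40 and lay between 3.43 and 4.30 when any 1 replicate was left out. The limma adjusted p was 0.093, and it passed with quantile normalization (0.0199) and in DESeq2 (1.19e-14). Klrg1 did not pass by edgeR (0.187), nor in limma with the first KO libraries alone (0.0847) or the repeats alone (0.0972).

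With Mmp9 and Klrg1, the 12 higher genes with the smallest p included 9 more that are described here, and Slc2a3, which is described with glycolysis. The limma adjusted p of each was 0.25. Nrn1, which encodes the surface protein neuritin, had 92 and 34 normalized counts in WT, against 797 and 616 in the first KO libraries, with 1034 and 1718 in their repeats (log2 fold change 4.17 ± 0.59). Izumo1r, which encodes folate receptor 4 of regulatory and anergic CD4 T cells, had 789 and 1084 in WT against 3355 to 4876 in KO (2.05 ± 0.31). In both genes the lowest KO library was several-fold above the higher WT library. Tnfrsf25 encodes the death receptor DR3, a costimulatory receptor for TL1A, and had 1000 and 1088 in WT and 2751 to 4199 in KO (1.72 ± 0.28). Gna15, a G protein alpha subunit, had 981 and 1032 in WT and 2545 to 4333 in KO (1.84 ± 0.27). Podnl1, a secreted leucine-rich repeat protein (2.88 ± 0.40), Map6, a microtubule stabiliser (3.32 ± 0.55), Ckb, brain-type creatine kinase (2.60 ± 0.41), and Pglyrp1, which binds peptidoglycan (1.97 ± 0.33), were also higher in all 4 KO libraries. Eif4ebp2, which represses the initiation of translation, differed by library. It had 266 and 120 in WT, 316 and 323 in the first KO libraries, with 1654 and 2623 in their repeats. The first libraries gave a log2 fold change of 0.83 and the repeats one of 3.53, so most of its difference lay between libraries of the same RNA.

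By p, Qpct, Ahr and Nt5e led the 12 lower genes, each of which had a limma adjusted p of 0.25 to 0.265. Qpct encodes glutaminyl cyclase, which modifies the N-terminus of chemokines and other peptides. It had 1352 and 2227 normalized counts in WT, against 44 and 226 in the first KO libraries, with 65 and 39 in their repeats (log2 fold change -4.33 ± 0.60). The highest KO library was well under the lower WT library. Ahr (chr12:35497974-35535038, minus strand), a ligand-activated transcription factor that type 17 and other mucosal T cells use, had 3209 and 4511 in WT, 440 and 489 in the first KO libraries, with 922 and 881 in their repeats. The 2 KO replicates were alike within each set of libraries, and all lay below WT (-2.48 ± 0.35). Cd55, which protects cells from complement, had 922 and 668 in WT and 52 to 204 in KO (-2.43 ± 0.39).

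Nt5e (chr9:88327197-88372092) encodes CD73, which makes extracellular adenosine from AMP. It had 3669 and 4897 normalized counts in WT, against 254 and 633 in the first KO libraries, with 299 and 658 in their repeats. Each repeat was close to its first library, and the groups were far apart (log2 fold change -3.32 ± 0.51). Its promoter window is shown because Nt5e is among the strongest of the lower genes and because its window holds a short match to the SMAD-binding element CAGACA, as do those of the lower genes Ice2 and Ncoa7 and of the higher genes Gna15 and Eif4ebp2. The window runs from 250 bases before to 50 bases after the transcription start (RefSeq, GRCm38.p6, chr9:88327359-88327658, plus strand). The capitals mark CAGACA read on the opposite strand, with its first printed base 70 bases before the start, at -70.
Nt5e promoter: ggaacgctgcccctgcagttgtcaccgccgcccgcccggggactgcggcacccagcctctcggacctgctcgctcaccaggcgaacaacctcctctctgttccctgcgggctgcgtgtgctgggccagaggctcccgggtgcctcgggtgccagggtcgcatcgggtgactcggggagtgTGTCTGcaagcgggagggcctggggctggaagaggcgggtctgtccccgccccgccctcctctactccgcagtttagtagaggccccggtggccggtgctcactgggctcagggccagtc
That motif was found in either orientation in 16.1% of 11133 promoter windows, and in 3 of 8 windows of the feedback list (Smurf1, Smurf2 and Tgif1). The median log2 fold change was -0.18 in these 3 genes and -0.39 in the 5 without it. A match of 6 letters is a description of the sequence and not a binding site. Adora2a, an adenosine receptor gene, stood on the other side of 0. It had 689 and 1549 in WT against 3618 to 6869 in KO, with no overlap (2.18 ± 0.41, limma adjusted p = 0.265). Of the 9 tested adenosine genes, Nt5e was the 1 lower and Adora2a the 1 higher at an unadjusted p under 0.05. The shares of all genes were 6.90% and 5.19%. Entpd1, whose product CD39 makes AMP from ATP, did not pass (0.56).

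The other lower genes of the 12 include regulators of the cytoskeleton and membrane lipids. Add3, a membrane skeleton protein, had 6046 and 6987 normalized counts in WT, against 2103 to 2688 in KO (log2 fold change -1.43 ± 0.27). Sgpp1, a sphingosine-1-phosphate phosphatase, had 7528 and 5286 in WT and 1908 to 2429 in KO (-1.60 ± 0.30). Both were tight within KO. Arhgap5, a GTPase-activating protein (-2.66), Fbxo30, a ubiquitin ligase subunit (-2.59), Nbeal1 (-3.51), Ice2, a subunit of the little elongation complex (-3.24), and Ncoa7, a nuclear receptor coactivator (-2.32), completed the set. Of these, Ice2 had 0 in the repeat of KO replicate 1 against 94 in its first library, and Arhgap5 had 7 in the repeat of KO replicate 2 against 172.

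**Figure D4:**
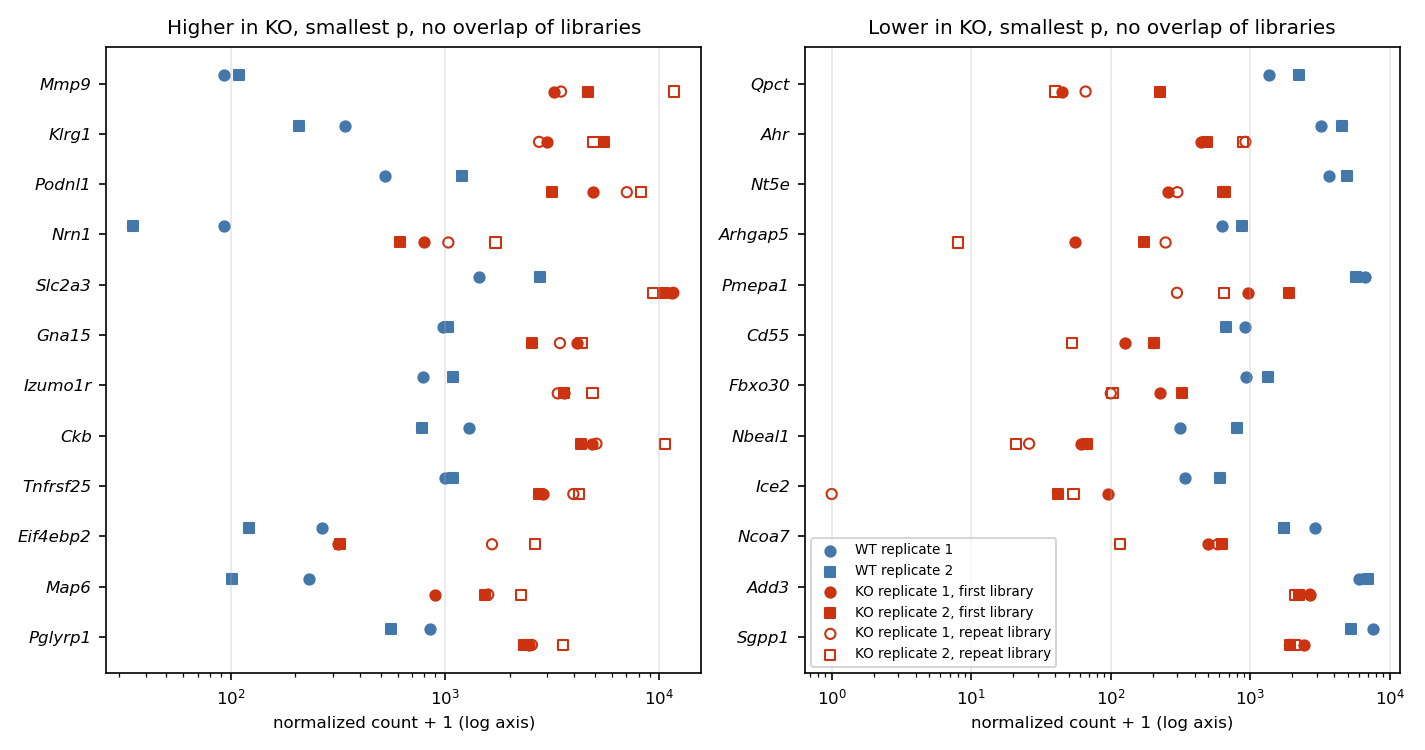
Normalized counts plus 1 of the 12 higher and 12 lower genes with the smallest p, in each WT and KO library on log axes. The groups do not overlap in any gene, which the rule required; the repeats of Eif4ebp2, at 1654 and 2623, stand apart from its first libraries at 316 and 323.

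Type 2 helper genes were of interest because Il4 was intact in both groups. Of 16 tested members, 13 were higher in KO, 5 of them at an unadjusted p under 0.05 beside 5.19% of all genes, and 1 was lower at that level. The list median was 1.33, and 1.13 to 1.86 with any 1 replicate left out, and without WT replicate 2 the number higher at that level was 3. Il4 (chr11:53602982-53618669, minus strand), the cytokine that starts this programme, had 107 and 276 normalized counts in WT, against 426 and 523 in the first KO libraries, with 352 and 236 in their repeats. The lowest KO library fell within the WT range, and the log2 fold change was 1.16 ± 0.80 (limma adjusted p = 0.598). Il5, the eosinophil growth factor, had 36 and 38 in WT, 538 and 4988 in the first KO libraries, with 512 and 2332 in their repeats. It was above WT in all 4 libraries, and KO replicate 2 was several-fold above KO replicate 1 (5.19 ± 1.93, limma adjusted p = 0.384). Il13, which acts on epithelium and macrophages, had 7 and 11 in WT and 6 and 15 in the libraries of KO replicate 1, but 118 and 375 in those of KO replicate 2. A higher Il13 level was thus found in 1 of the 2 replicates. Mcpt4 and Cma1, mast cell proteases, had 0 reads in all 6 libraries, and Gata2, which mast cells and basophils express, had at most 1 normalized count in KO. Of the other genes of that list, Kit had 9068 and 945 in WT and 554 to 2049 in KO, and Cpa3, a mast cell protease, was listed at 0 in both WT libraries and had 3 and 49 in the first KO libraries, with 7 and 3 in their repeats. The part of such cells in the type 2 values was not tested.

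Receptors of the type 2 programme were among the higher genes. Crlf2 encodes the receptor for TSLP, and had 934 and 870 normalized counts in WT, against 1484 to 3729 in KO (log2 fold change 1.5 ± 0.29). Il1rl1 encodes ST2, the receptor for IL-33, and had 290 and 236 in WT and 612 to 1681 in KO (2.01 ± 0.54). In both, each KO library exceeded both WT libraries. Il4ra, the IL-4 receptor chain, was higher too (1.03). Areg, which encodes the repair factor amphiregulin, had 703 and 232 in WT and 2009 to 2737 in KO (2.57 ± 0.74). Gata3, the master regulator of these cells, did not separate, with 2661 and 4286 in WT and 2926 to 8642 in KO. Ccr8, a chemokine receptor of type 2 and regulatory cells, had 4065 and 8967 in WT and 983 to 1491 in KO, and was the 1 member lower at an unadjusted p under 0.05 (-2.38 ± 0.58). The limma adjusted p was 0.265 for Crlf2, 0.367 for Il4ra and 0.345 for Il1rl1, Areg and Ccr8.

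Of the 19 type 1 helper genes, 14 were higher in KO, beside 46.7% of all genes, and 4 were so at an unadjusted p under 0.05, beside 5.19%. The median was 1.21. That median was 0.47 without WT replicate 1 and 0.42 without KO replicate 1, and the number higher at that level was then 1 and 0. Ccl5, a chemokine of effector T cells, had 3912 and 5002 normalized counts in WT, against 25534 and 15797 in the first KO libraries, with 27047 and 14039 in their repeats (log2 fold change 2.16 ± 0.63). All KO libraries were above WT. Tbx21, which encodes T-bet, had 2787 and 9708 in WT and 10765 to 17646 in KO (1.40 ± 0.53), and Il12rb1, the IL-12 receptor chain, 748 and 2490 in WT and 2834 to 5451 in KO (1.55 ± 0.61). Neither overlapped, though WT replicate 2 came close to the lowest KO library in both. Tnf was higher as well (1.12). Ifng did not separate, and is described below with the genes that differed between the KO replicates. Cxcr6 and Fasl were at -0.65 and -0.86 and did not pass.

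Surface molecules of the TNF receptor family that regulatory and activated T cells share were higher in KO. Of 13 regulatory T cell genes, 9 were higher, 6 at an unadjusted p under 0.05 (5.19% of all genes) and 0 lower at that level (6.90%). The median was 1.57 (1.27 to 1.70 with any 1 replicate left out), and without WT replicate 1 the counts were 4 higher and 2 lower. Tnfrsf4, which encodes OX40, had 5494 and 8937 normalized counts in WT, against 38281 and 18381 in the first KO libraries, with 35148 and 23014 in their repeats (log2 fold change 1.98 ± 0.45). Tnfrsf9, which encodes 4-1BB, had 3335 and 2023 in WT and 9647 to 15543 in KO (2.23 ± 0.52). Tnfrsf18, which encodes GITR, had 7424 and 9132 in WT and 18509 to 29804 in KO (1.49). The groups did not overlap in these 3 genes, and DESeq2 called each of them higher. Ebi3, a subunit of the cytokines IL-27 and IL-35, had 45 and 45 in WT and 323 to 689 in KO (3.29 ± 0.68, limma adjusted p = 0.293). Il2ra, which encodes CD25, the marker the sort was set to exclude, had 400 and 1089 in WT, 4641 and 2067 in the first KO libraries, with 3761 and 1205 in their repeats (1.99). It was above WT in every KO library. Foxp3, the regulator of regulatory T cells, overlapped, with 437 and 182 in WT, 413 and 1526 in the first KO libraries, with 330 and 3386 in their repeats. Ikzf2 (-0.91), Nrp1 (-0.53) and Itgb8 (-2.80), which regulatory T cells also express, did not pass. The genes of this list that were higher at an unadjusted p under 0.05 were thus activation receptors, Lrrc32 and Ebi3. Foxp3 did not pass, but both libraries of KO replicate 2, at 1526 and 3386, were several-fold above WT. The part of regulatory T cells in these values was not tested.

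Checkpoint receptors were higher in 10 of 13 tested genes, 4 at an unadjusted p under 0.05 beside 5.19% of all genes, with a median of 0.59. Without KO replicate 1 the median was -0.11 and 1 gene was higher at that level. Pdcd1, which encodes PD-1, had 6702 and 4536 normalized counts in WT, against 18305 and 9013 in the first KO libraries, with 21310 and 11146 in their repeats (log2 fold change 1.36 ± 0.46). Lag3, an inhibitory receptor for MHC class II, had 22 and 62 in WT, 753 and 123 in the first KO libraries, with 985 and 215 in their repeats (3.32 ± 0.96). Both were above WT in all KO libraries and higher in KO replicate 1 than in KO replicate 2. Vsir, which encodes VISTA, and Tigit were the other 2 (0.77 and 2.10). Of the follicular helper genes, Pdcd1 was the 1 of 11 that was higher at that level, beside 5.19% of all genes. Bcl6, the regulator of that lineage, was at -0.68.

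The KO replicates differed several-fold from each other in some genes of the lists and in others. The genes named here were singled out after their values were seen. Of 343 state list genes with a mean of at least 50 normalized counts in KO, 19 were at least 4-fold higher in KO replicate 1 than in KO replicate 2 in both the first and the repeat libraries, and 9 the other way. Over all tested genes at that level the counts were 147 and 281 of 11387. Gzmb, which encodes granzyme B, had 80953 and 72112 normalized counts in KO replicate 1 and 5429 and 2436 in KO replicate 2, with 3782 and 10602 in WT. Ifng had 39579 and 30000 in KO replicate 1, 5982 and 4437 in KO replicate 2, and 3733 and 9012 in WT. Ctla4, an inhibitory receptor gene, had 40185 and 38781 in KO replicate 1, 5244 and 3325 in KO replicate 2, and 5154 and 6204 in WT. In all 3, KO replicate 1 was several-fold above WT and KO replicate 2 was within or below the WT range. Il10, Il21, Ccl3, Ccl4, Havcr2 and the granzyme inhibitor genes Serpinb9 and Serpinb6b followed the same order. The death receptor gene Fas, Ifit1, Mmp8 and Pmaip1 did as well. Il5, Il13 and Ccr7, the lymph node homing receptor, were in the opposite order, as were Igfbp4, Timp3 and Tgfb2. Ccr7 had 2292 and 2026 in KO replicate 1, 9231 and 14949 in KO replicate 2, and 8959 and 6621 in WT. A mean over the KO replicates describes neither of them for these genes. Markers of CD8 T cells and NK cells were low in sum, and members differed in direction. Over the 2 CD8 genes the summed level was 694 and 1126 normalized counts in WT and 234 to 524 in KO, of which Cd8b1 had 177 to 462. The 8 NK and innate lymphoid genes summed to 1204 and 3773 in WT and 1124 to 2019 in KO. Of these, Klrb1c, which encodes NK1.1, had 1069 and 989 in KO replicate 1, 456 and 162 in KO replicate 2, and 86 and 168 in WT, the same order as Gzmb and Ifng. Their part in the split was not tested.

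Csf2, which encodes GM-CSF, did not share this split. It had 173 and 154 normalized counts in WT, against 2158 and 3114 in the first KO libraries, with 1684 and 2099 in their repeats. All KO libraries were close to each other and far above WT (log2 fold change 3.77 ± 0.79, limma adjusted p = 0.296). Csf1, the macrophage growth factor, was above WT too, with 1499 and 602 in WT and 2041 to 10268 in KO (2.39 ± 0.69). Among 18 effector cytokine and growth factor genes, Csf2, Csf1 and Areg were higher at an unadjusted p under 0.05, beside 5.19% of all genes. Tnfsf11, which encodes RANKL (-1.17), Lta, lymphotoxin alpha (-1.14), and the chemokine gene Xcl1 (-2.66) were lower at that level, beside 6.90% of all genes. The list median was -0.26, but 0.12 to 0.28 when 1 of the WT or KO replicates was left out. Without KO replicate 1 the calls at that level were 1 higher and 0 lower, and without WT replicate 2 they were 1 and 1. Vegfa, Hbegf and Lif overlapped, and their highest level was in WT replicate 1, the library with the most epithelial marker RNA. The part of such RNA in these 3 genes was not tested. Hbegf was also at least 4-fold higher in KO replicate 2 than in KO replicate 1 in both sets of libraries.

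Cytotoxic and NK receptor genes were divided. Of 19 tested, Klrg1 included, 4 were higher and 2 lower at an unadjusted p under 0.05, beside 5.19% and 6.90% of all genes. The median of 0.52 was -0.11 without WT replicate 1 and 0.07 without KO replicate 1. Cst7, a granule protease inhibitor, had 1004 and 1071 normalized counts in WT, against 2418 to 6808 in KO (log2 fold change 2.11 ± 0.57). Klrk1, which encodes the activating receptor NKG2D, had 1005 and 3464 in WT and 217 to 747 in KO (-2.0 ± 0.59). Klrc2, another activating lectin receptor, had 43 and 251 in WT and at most 16 in KO (-4.01). In these 3 genes the groups did not overlap.

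Signalling downstream of cytokines showed single genes rather than a whole list. Of 25 receptor, JAK, STAT and SOCS genes, 8 were higher and 1 lower at an unadjusted p under 0.05, beside 5.19% and 6.90% of all genes, and the median was 0.15. Stat5a, which relays IL-2 and IL-7, had 1085 and 1246 normalized counts in WT, against 2632 and 3031 in the first KO libraries, with 3090 and 2756 in their repeats (log2 fold change 1.31 ± 0.28, limma adjusted p = 0.303). Jak3, the kinase of the common gamma chain, had 3039 and 5795 in WT and 9262 to 19119 in KO (1.52 ± 0.37), and Il10ra, the IL-10 receptor chain, 1676 and 2619 in WT and 5053 to 7474 in KO (1.5 ± 0.35). None of the 3 overlapped. Il2rb, the shared beta chain of the IL-2 and IL-15 receptors (1.33), Socs3 (1.24), Il21r (1.09) and Cish (0.95) were higher as well, and Ifngr2, a chain of the interferon gamma receptor, was lower (-1.44). Without WT replicate 1 the counts were 3 higher and 5 lower, so the direction of the list rested on that library.

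Batf, an AP-1 factor needed for type 2, type 17 and follicular helper cells, had 1400 and 1504 normalized counts in WT, against 12548 and 3522 in the first KO libraries, with 11122 and 6502 in their repeats (log2 fold change 2.41 ± 0.44, limma adjusted p = 0.265). All KO libraries exceeded WT. Egr2, a factor that T cell receptor signals induce and that limits activation, had 5116 and 4878 in WT and 640 to 1929 in KO (-2.01 ± 0.56). Of the 17 early activation genes, Batf was the 1 higher and Egr2 the 1 lower at an unadjusted p under 0.05. These counts were near the shares of all genes, 5.19% and 6.90%. Nr4a1, Fos and Jun overlapped. Of the 12 type 17 genes, 1 was higher and 2 lower at that level, beside the same shares. Batf was the higher one, and Ahr and the chemokine receptor gene Ccr6 (-2.20) were lower. Il17a and Il17f, the cytokines of that lineage, were at -0.91 and -0.17 and did not pass.

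Integrins and homing receptors also lay on both sides of 0. Itgal, which encodes LFA-1 alpha, had 7526 and 16663 normalized counts in WT, against 22310 to 33476 in KO (log2 fold change 1.33 ± 0.43), and its partner gene Itgb2 was higher (0.96). Itgb7, which pairs with Itgae or Itga4 products, had 15123 and 16474 in WT and 28286 to 51180 in KO (1.17 ± 0.35). Both Itgal and Itgb7 were thus above WT in each KO library, whereas Itgae was below it. Of 13 naive and lymph node homing genes, 11 were lower, beside 52.9% of all genes, and 2 of them at an unadjusted p under 0.05, beside 6.90%. The median of -0.50 became 0.38 without KO replicate 1. S1pr1, the receptor for exit into lymph, had 9717 and 10599 in WT and 4020 to 7621 in KO (-0.84 ± 0.35). Tcf7 and Lef1, regulators of the naive state, overlapped (-0.20 and -0.13).

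Glycolysis and hypoxia genes were higher in 17 of 20 cases, 8 at an unadjusted p under 0.05 beside 5.19% of all genes and 0 lower at that level, with a median of 0.83. Slc2a3 (chr6:122727809-122801640, minus strand), which encodes the glucose transporter GLUT3, had 1433 and 2761 normalized counts in WT, against 11419 and 10476 in the first KO libraries, with 11619 and 9322 in their repeats. The 4 KO libraries were nearly equal and far above WT (log2 fold change 2.42 ± 0.35, limma adjusted p = 0.25). Slc16a3, which encodes the lactate exporter MCT4, had 551 and 610 in WT, 3900 and 2770 in the first KO libraries, with 3503 and 4680 in their repeats (2.68 ± 0.53). Gapdh had 16300 and 7321 in WT and 28836 to 42348 in KO (1.72 ± 0.42). For both, all KO libraries were above WT. Slc2a1 (1.30), Pgk1 (1.26), Pkm (1.20), Eno1 (0.81) and Pfkp (0.77) were the other 5. The hypoxia-induced genes Bnip3, Egln3 and Pdk1 did not follow, at -0.33, 0.22 and -0.06. The median of the list was 1.51 without WT replicate 1 and 0.47 without WT replicate 2, and 4 members were higher at an unadjusted p under 0.05 without either KO replicate or without WT replicate 2. WT replicate 2, which had the lower level of most of these genes, also had the lower level of ribosomal protein genes.

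The Slc16a3 promoter window is shown because its gene was among the highest of this list and because it holds the core of the hypoxia response element, ACGTG, at -27 and -14 (RefSeq, GRCm38.p6, chr11:120948817-120949116, plus strand). The capitals mark both copies.
Slc16a3 promoter: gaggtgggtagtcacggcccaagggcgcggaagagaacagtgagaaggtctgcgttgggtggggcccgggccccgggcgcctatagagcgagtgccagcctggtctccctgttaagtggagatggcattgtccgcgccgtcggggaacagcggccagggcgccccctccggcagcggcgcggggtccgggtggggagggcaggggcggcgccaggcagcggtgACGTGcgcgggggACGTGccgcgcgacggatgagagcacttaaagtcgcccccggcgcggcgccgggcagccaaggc
The core was found on either strand in 11 of 18 windows of this list, and in 25.0% of all 11133 windows. The median log2 fold change was 1.19 in genes with it and 0.77 in the 7 genes without it. Slc2a1, Hk2, Gapdh, Ldha and Pgk1 held it, but so did Bnip3 and Egln3.

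Interferon-stimulated genes were lower in 21 of 24 cases, 8 at an unadjusted p under 0.05 beside 6.90% of all genes and 0 higher at that level, with a median of -0.78. Ifi44, an interferon-induced cytoplasmic protein, had 1017 and 1726 normalized counts in WT, against 362 and 150 in the first KO libraries, with 80 and 32 in their repeats (log2 fold change -3.21 ± 0.71). Ifit3, which binds viral RNA complexes with its relatives, had 6385 and 10525 in WT, 3928 and 2257 in the first KO libraries, with 3239 and 1219 in their repeats (-1.72 ± 0.42). Rtp4 had 5933 and 6888 in WT and 1265 to 4186 in KO (-1.24 ± 0.40). In these 3 genes every KO library was below WT, and KO replicate 2 was below KO replicate 1 within each set of libraries. Isg15 and Irf7, other classical members, overlapped (-0.07 and -0.24), and Ifi27l2a was at 0.79. The list median was -0.29 without WT replicate 2, -0.32 without KO replicate 2, -1.29 without KO replicate 1 and -1.30 without WT replicate 1. The number lower at an unadjusted p under 0.05 was 2 without KO replicate 2, 4 without WT replicate 2 and 11 without WT replicate 1. The WT replicates themselves differed in this list. Ifit1 had 3586 normalized counts in WT replicate 1 and 15502 in WT replicate 2. The first library of KO replicate 1, with 3493, was close to WT replicate 1.

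The Ifit3 promoter window is shown because it holds 2 copies of the interferon-stimulated response element, searched on both strands as GAAA, any 2 bases and GAAA (RefSeq, GRCm38.p6, chr19:34583279-34583578, plus strand). The capitals mark TTTCACTTTC at -156 and TTTCAGTTTC at -122, which read as the element on the opposite strand.
Ifit3 promoter: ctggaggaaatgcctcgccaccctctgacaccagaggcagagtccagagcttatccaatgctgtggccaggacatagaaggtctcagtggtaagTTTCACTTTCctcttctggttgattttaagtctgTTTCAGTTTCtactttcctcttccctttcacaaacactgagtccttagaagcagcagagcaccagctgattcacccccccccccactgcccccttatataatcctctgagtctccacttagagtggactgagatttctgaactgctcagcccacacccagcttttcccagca
The element was found in 11 of 18 windows of this list and in 3.23% of all windows. The median log2 fold change was -0.78 in the 11 genes with it and -0.78 in the 7 without it, and 10 of the 11 were at a lower level in KO.

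**Figure D5:**
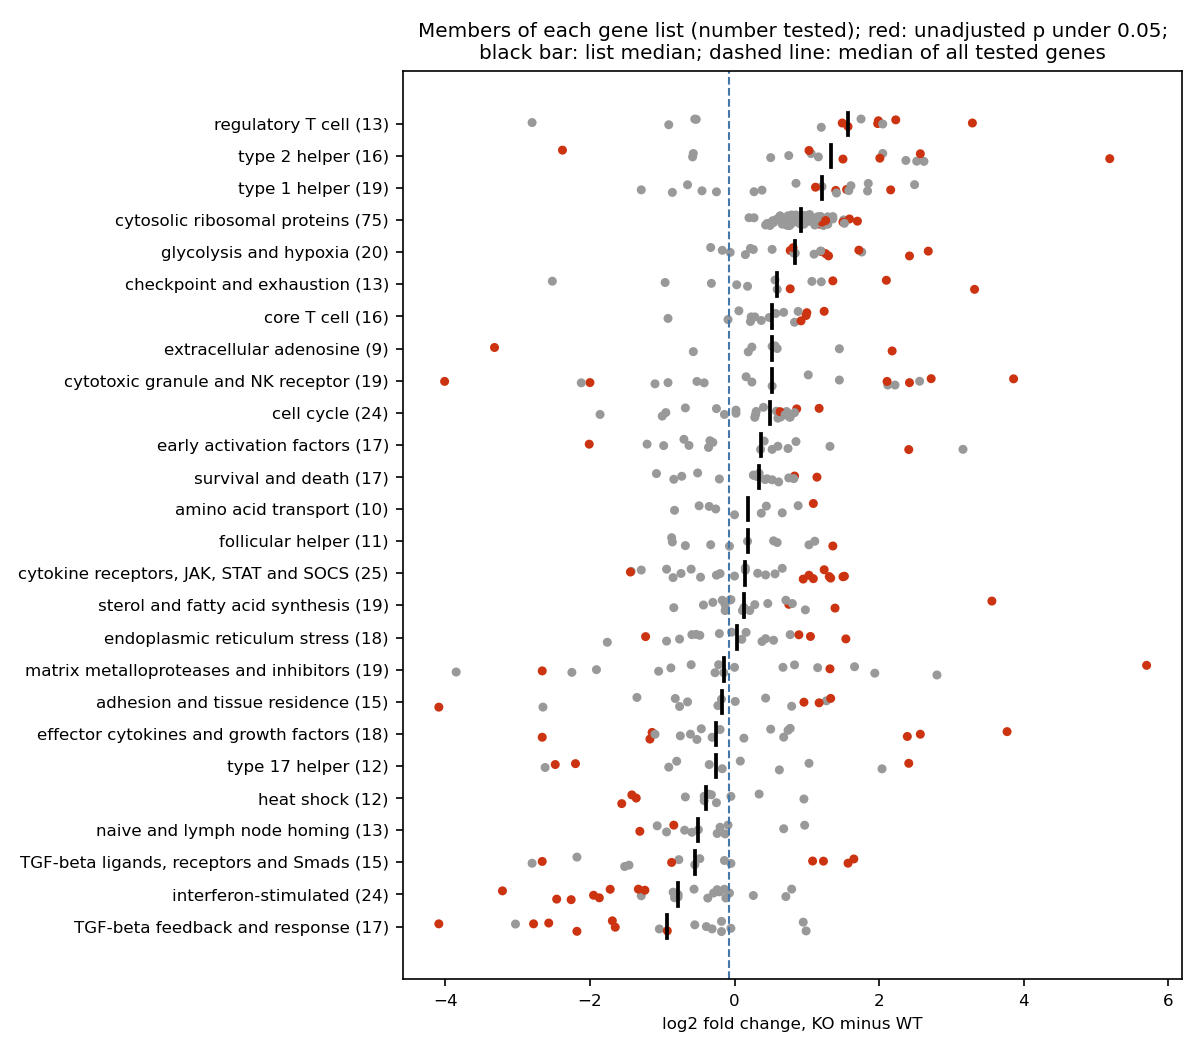
Log2 fold change of each tested member of the state, T cell identity and RNA quality lists, with the median of each list as a black bar and members at an unadjusted p under 0.05 in red. Medians run from -0.93 for TGF-beta feedback and response to 1.57 for regulatory T cell genes, beside -0.07 over all tested genes.

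Growth and stress genes showed smaller differences. Of 24 cell cycle genes, 18 were higher, beside 46.7% of all genes, and 3 of them at an unadjusted p under 0.05, beside 5.19%: the replication helicase genes Mcm5 (log2 fold change 1.17 ± 0.32) and Mcm7 (0.63 ± 0.27), and Cdc20 (0.86 ± 0.35). Mcm5 had 2084 and 2732 normalized counts in WT, against 4231 to 6589 in KO, while Mki67 and Top2a were at -1.0 and -0.95. Of the survival genes, Bcl2l1, which encodes BCL-XL (0.83 ± 0.29), and Bbc3, which encodes PUMA (1.14 ± 0.44), were higher, and Bcl2 was at -1.08. Slc7a5, the large neutral amino acid transporter, was higher among 10 transporter genes, with 1345 and 1278 normalized counts in WT, against 2224 to 4187 in KO (1.09 ± 0.34). In sterol and fatty acid synthesis, Fasn (1.39) and Fdps (0.75) were among the higher genes of 19. In endoplasmic reticulum stress, the transcription factor genes Atf6 (1.54 ± 0.45) and Atf4 (1.05) and Sdf2l1 (0.89) were higher and the chaperone gene Dnajb9 lower (-1.23 ± 0.40). At an unadjusted p under 0.05, the number higher was 2 of 17 survival and 1 of 10 amino acid transport genes. It was 3 of 19 sterol and 3 of 18 endoplasmic reticulum stress genes, beside 5.19% of all genes. In endoplasmic reticulum stress 1 was lower, beside 6.90%, and in the others 0 were. Heat shock genes were lower in 10 of 12, beside 52.9% of all genes, and 3 were so at an unadjusted p under 0.05, beside 6.90%. These were the cochaperone gene Dnaja1 (-1.56), Hsph1 (-1.36) and the mitochondrial chaperone gene Hspd1 (-1.42). The list medians were 0.49 for cell cycle, 0.34 for survival, 0.19 for amino acid transport, 0.13 for sterol, 0.03 for endoplasmic reticulum stress and -0.39 for heat shock genes. The cell cycle median was 0.06 without KO replicate 1, or 0.14 with WT replicate 1 left out, and the sterol median ran from 0.06 without WT replicate 2 to 0.49 without KO replicate 1. The survival median was -0.08 without KO replicate 1, that of amino acid transport -0.15 without WT replicate 1, and that of endoplasmic reticulum stress -0.19 without WT replicate 2. The number of cell cycle genes higher at an unadjusted p under 0.05 was 1 without WT replicate 1 and 6 without KO replicate 2.

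All 75 tested cytosolic ribosomal protein genes were higher in KO, with a median of 0.92, but 6 had an unadjusted p under 0.05, beside 5.19% of all genes. Rplp0 had 21737 and 11268 normalized counts in WT, against 27238 to 54680 in KO (log2 fold change 1.18). The median was 0.02 without WT replicate 2 and 1.81 without WT replicate 1, so that the direction rested on WT replicate 2. The core T cell list was higher in 14 of 16 genes with a median of 0.52, which was 0.18 without WT replicate 1 and 0.92 without WT replicate 2. Of the 16, 4 were higher at an unadjusted p under 0.05, beside 5.19% of all genes. Cd4 was among them, with 12165 and 13115 in WT and 24236 to 37308 in KO (1.24). Log2 fold changes also followed transcript length, with a Spearman correlation of -0.19 over 14189 genes, which are not independent replicates. The median transcript length was 2304 bases for the genes higher at an unadjusted p under 0.05, 3444 for those lower and 2610 over all tested genes. The part of RNA quality or of RNA from other cells in the list medians was not tested.

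The same deletion on the Il4-deficient background gave a second reading from other libraries. These held 28552482 to 33802781 reads, a depth nearer to the KO repeats than to WT and the first KO libraries. The part of depth or library set in the differences between backgrounds was not tested. In a test of the difference between the backgrounds, limma called 0 of 14473 genes after adjustment and 510 at an unadjusted p under 0.05 (3.52%). edgeR called 0 and DESeq2 called 35 (0.252%). Klrg1 had a log2 fold change of 3.97 ± 0.40 there against 3.86 with Il4 intact, a difference of 0.11 ± 0.56. Ahr had -2.51 ± 0.35 against -2.48, a difference of -0.03 ± 0.49. For Mmp9 it was 3.99 ± 0.46 against 5.70, a difference of -1.70 ± 0.65. Skil (-2.27 against -2.57), Pmepa1 (-2.17 against -2.78) and Slc2a3 (1.96 against 2.42) lay close on both backgrounds. Tgfb1 did not, with -0.41 ± 0.28 against 1.65 (difference -2.06 ± 0.40, limma adjusted p = 0.988). It had 3413 and 3881 normalized counts in the Il4-deficient cells with intact Tgfbr2, against 1606 and 1851 in WT, and 2650 and 2813 in those with both deletions. Stat5a (-0.30 against 1.31), Ckb (0.45 against 2.60) and Eif4ebp2 (0.01 against 2.74) showed a gap of similar kind, with the same adjusted p. That of Eif4ebp2 rested on the repeat libraries, since with the first KO libraries its log2 fold change was 0.83. Eif4ebp2 had 1903 to 2003 normalized counts in the Il4-deficient replicates and 1654 and 2623 in the KO repeats. In WT and the first KO libraries it had 120 to 323. The 12 lower genes other than Ahr and Pmepa1 differed less there. These included Qpct (-1.29 against -4.33), Nbeal1 (-0.63 against -3.51), Arhgap5 (-0.41 against -2.66), Fbxo30 (-0.50 against -2.59) and Sgpp1 (-0.18 against -1.60). Ice2 (0.15 against -3.24) and Ncoa7 (0.12 against -2.32) changed sign, while Nt5e was at -2.22 against -3.32. The limma adjusted p of each difference was 0.988. These genes were chosen by their difference with Il4 intact, so the backgrounds are not compared evenly. Across lists, the TGF-beta feedback median was -1.34 there against -0.93 and the cell cycle median 0.83 against 0.49. The type 2 helper median was 0.12 against 1.33, the type 1 helper median 0.06 against 1.21 and the glycolysis and hypoxia median 0.08 against 0.83. These differences between list medians were not tested.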

How the data were processed

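RNA of sorted tumour CD4+CD25- T cells was amplified with SMART-Seq v4 and made into libraries with KAPA Hyper Prep, per the labels' protocols. The submitters' processing notes name bcl2fastq 2.18.0, STAR, DESeq2 and the build mm10. The counter, the annotation and the use of strand are not given in the sources used here. The deposited table holds a signal per gene, read counts that the authors divided by a size factor per library. Whole reads could be recovered from it for 100.0% of values within 0.001 reads. No molecular identifiers were used, so reads are not independent molecules. The design had assumed normalized values, and the main test was kept on them.

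Of 17370 rows, 7 had no gene name (0.0029% to 0.0205% of a library) and were left out. A gene was tested if 2 or more of the 8 replicates reached 10 normalized counts, and 14473 of 17363 genes did. The repeat libraries of KO were averaged with the first ones. limma 3.58.1 (R 4.3.3) with a variance trend was fitted to log2(normalized count + 1), so fold changes of low genes are understated. The spread was estimated over all 4 genotypes together (residual degrees of freedom, 4). Two-sided p-values were adjusted by Benjamini-Hochberg at 0.05, and ± is a standard error. The recovered reads, with repeats summed, were also tested with edgeR 4.0.16 and DESeq2 1.42.0. Figures were drawn with matplotlib 3.10.9.

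Named genes were Tgfbr2, Il4, Il5 and Il13, genes past the threshold, the 12 higher and 12 lower genes with the smallest p, a mean of at least 50 and no overlap of libraries, and the 3 members of each list with the smallest p. Other genes were named after their values were seen. The members and the gene lists were chosen with earlier results of these data known. Of 117 named genes, 82 had a promoter window of 300 bases in the RefSeq table used (GRCm38.p6). Some results are not reported here.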

Additional observations from a re-analysis of the deposited data

How the results depend on the processing

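The 1 gene past the adjusted threshold was Mmp9, and the count was 527 by DESeq2, 2 with quantile normalization, 2 without the variance trend, 0 by edgeR, 0 with WT and KO fitted alone, 0 with the repeat KO libraries alone, and 0 to 0 when each of the 8 replicates was left out. The adjusted p of Mmp9 was 0.752 with WT and KO alone, 0.108 by edgeR, 0.098 without the variance trend and 0.0972 with the repeats alone. The 751 genes higher at an unadjusted p under 0.05 became 406 with WT and KO alone, and 402 (without KO replicate 2) to 1102 (without WT replicate 1) when 1 replicate was left out. The 998 lower genes became 428 with WT and KO alone, 1564 with the repeat libraries alone, and 454 (without KO replicate 2) to 1517 (without WT replicate 1), with 541 without WT replicate 2. The test of the difference between Il4 backgrounds called 0 genes in limma, 35 in DESeq2 and 0 to 0 with any 1 replicate left out, and could not be made with WT and KO alone. Tgfbr2, at -0.14, turned to 0.11 with the repeat libraries alone and to 0.18 with the trend on transcript length removed, an alternative chosen after seeing the data, under which 916 genes were higher and 762 lower. The replicate numbers were not taken as pairing WT with KO: the deviations of same-numbered samples from their group means correlated at -0.202 there and at -0.335 and -0.358 between WT and the Il4-deficient genotypes. They correlated at 0.192 to 0.236 among the other 3 genotypes, which share the estimate of the spread. With the replicate number as a block, 0 genes passed the adjusted threshold, 641 were higher and 801 lower at an unadjusted p under 0.05, and the adjusted p of Mmp9 was 0.175. With the WT numbers crossed, also chosen after seeing the data, the block gave 3 genes past the adjusted threshold and 1694 lower. Depth was not even, since the floor of 3 reads stood at 2.55 to 4.41 normalized counts, and the 2 replicates per genotype limit which differences could pass the adjusted threshold.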
